A study of Mus musculus with 1483 samples.

Results

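The cells described here are cortical inhibitory neurons that held the messages of both Sst and Pvalb. They were chosen from single cells by 4 genes: Gad1 at 100 counts per 1000000 reads (CPM) or more, Slc17a7 under 10 CPM, and Sst and Pvalb each at 300 CPM or more. Of 1483 cells, 70 met this rule, or 4.72%, with 0 to 18.8% of the cells of a mouse. The same Gad1 and Slc17a7 limits gave 245 cells with Sst alone past 300 CPM and 572 with Pvalb alone, so that cells with both were 7.89% of the 887 cells past either limit. They came from 20 of 33 mice, with at most 9 in a mouse.

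Each cell was a neuron of mouse VISp, the primary visual cortex, sorted into its own tube for SYFP2, a yellow fluorescent protein that a virus (AAV) expressed under 1 of 11 candidate enhancers. All mice were of the strain C57Bl/6J, and their age was not given in the labels. There were 4 mice for the enhancer eHGT_064h, 2 for eHGT_082h, and 3 for each of eHGT_017h, eHGT_019h, eHGT_023h, eHGT_058h, eHGT_078h, eHGT_079h, eHGT_128h, eHGT_140h and hDLXI56i. The mouse was the replicate, and a share of cells here is a share of what an enhancer labelled and the sort kept, not of the tissue.

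Sst encodes somatostatin, a peptide released by interneurons that mainly contact the dendrites of pyramidal cells. Pvalb encodes parvalbumin, a calcium buffer of fast-spiking interneurons that mainly contact cell bodies and axon initial segments. Both kinds of neuron arise from the medial ganglionic eminence of the embryonic brain, and the messages of both genes are known to occur together in some cortical interneurons. Sst lies on chromosome 16 from 23889573 to 23890958 (minus strand) and Pvalb on chromosome 15 from 78191114 to 78206400 (minus strand), in GENCODE vM21 coordinates of mouse build mm10.

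The values that chose the cells are given as a description. In the 70 cells Sst ranged from 306 to 17324 CPM with a median of 2919 CPM, against a median of 9771 CPM in Sst-only cells. Pvalb ranged from 307 to 2519 CPM with a median of 827 CPM, against a median of 2666 CPM in Pvalb-only cells. Either median was thus lower in cells past both limits than in cells past the limit on that gene alone. The limits on these genes made the classes, so no test was run on this. The 3 lowest Sst values inside the limit were 306, 342 and 418 CPM, and the 3 highest outside it, among Pvalb-only cells, were 272, 187 and 125 CPM. For Pvalb the lowest inside were 307, 307 and 308 CPM and the highest outside, among Sst-only cells, were 299, 284 and 276 CPM. The limit thus ran through a continuous range of Pvalb but a sparse range of Sst. Sst was at 0 in 539 of 572 Pvalb-only cells, while Pvalb was at 10 CPM or more in 126 of 245 Sst-only cells and at 100 CPM or more in 30. A limit of 100 CPM on both genes gave 108 cells, and a limit of 1000 CPM gave 19. Over the 70 cells, Sst and Pvalb ran against each other on a log scale (Pearson's r -0.34, Spearman's rho -0.37), as a description of cells that share libraries and limits.

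**Figure D1:**
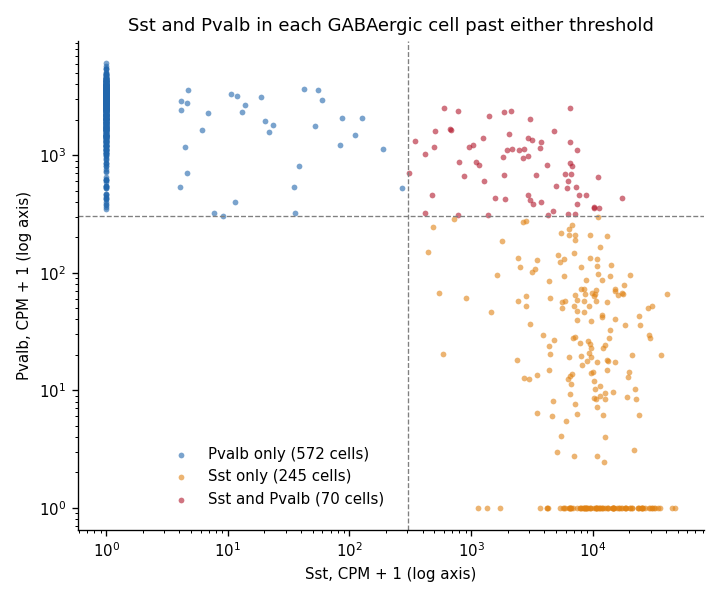
Sst against Pvalb in the 887 cells, as CPM + 1 on log axes, 1 point per cell; dashed lines mark the 300 CPM limit on each gene. The 70 cells with both fill the upper right corner, close to the Pvalb limit for many of them, and most Pvalb-only cells lie at 0 for Sst.

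Markers of an inhibitory neuron were present in all 70 cells. Gad2, an enzyme of GABA synthesis that the rule did not use, ranged from 193 to 1198 CPM. Kcna1 and Kcnc1, potassium channels of fast-spiking neurons, were at 10 CPM or more in 70 of 70 cells, with medians of 237 and 383 CPM. This cut did not set the classes apart. Kcnc1 and Gad2 passed it in 100% of Sst-only and of Pvalb-only cells, and Kcna1 in 93.5% and 99.3%. The median of Kcna1 was 104 CPM in Sst-only and 329 CPM in Pvalb-only cells, and that of Kcnc1 was 155 and 651 CPM. None of 279 glutamatergic cells (Slc17a7 at 10 CPM or more, Gad1 under 10 CPM) had Sst or Pvalb at 300 CPM. Counted as independent cells pooled over mice, this allows a share of up to 1.08%. The median depth of these cells was 586860 reads. Their Gad1 limit leaves out cells mixed with an interneuron, so this share does not measure carry-over. Of all 358 cells outside the Gad1 and Slc17a7 limits of the rule, 16 had Sst and 29 had Pvalb at 300 CPM or more, and 3 had both.

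Reads per cell, recovered from the CPM, had a median of 624682 in cells with both (107765 to 932467), 565909 in Sst-only and 598165 in Pvalb-only cells. Genes detected had medians of 10015, 9377 and 9918.5. Within mice, the median reads of cells with both differed by -10837 ± 96263 (SD, n = 8 mice) from Sst-only cells (exact sign-flip permutation test, 2-sided p = 0.898). Against Pvalb-only cells the difference was 31094 ± 46275 (SD, n = 11 mice; exact permutation p = 0.0547). Genes per cell differed by 249 from Sst-only cells (higher in 6 of 8 mice, exact permutation p = 0.0938) and by -90.5 from Pvalb-only cells (lower in 8 of 11 mice, exact permutation p = 0.482). The reads difference from Pvalb-only cells passed 0.05 with a limit of 100 CPM (exact permutation p = 0.0344) and without any 1 of 3 mice, which were of eHGT_064h, eHGT_079h and eHGT_023h (p = 0.0273 to 0.0469). The genes difference from Sst-only cells did so with a limit of 100 CPM (exact permutation p = 0.0176) and without the eHGT_064h mouse that gave 3 cells (p = 0.0312). No doublet caller was run, and the part of 2 cells in 1 tube was not tested beyond these values and those of the genes below. Summed markers of cells other than neurons had these ranges over the mouse means of cells with both: 0 to 54.5 CPM for 7 astrocyte genes, 0 to 3.65 CPM for 7 microglial genes and 0 to 16.2 CPM for 7 endothelial and mural genes. The 10 markers of interneurons from the caudal ganglionic eminence, another source of cortical interneurons, summed to 4.57 to 205 CPM (median 34.5 CPM), against a median of 390.5 CPM in Sst-only and 45.5 CPM in Pvalb-only cells. The list holds Calb2, also an Sst-side marker below, with median mouse means of 282 CPM in Sst-only and 2.62 CPM in cells with both. The part of these markers in the differences was not tested. The 10 glutamatergic genes summed to 26.03 to 97.8 CPM, with Neurod6, Neurod2, Tbr1 and Emx1 at 0. The 7 oligodendrocyte genes summed to 20.6 to 97.5 CPM in cells with both, against up to 3684 CPM in 1 mouse of the Sst-only class, and their part in the differences from that class was not tested.

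Cells with both were found under 9 of 11 enhancers, and most of them under 4. The enhancer eHGT_079h gave 18, or 12.7% ± 5.33 of a mouse's cells (SD, n = 3, 8.70% to 18.8%). For eHGT_023h the number was 16 (11.5% ± 6.46, n = 3) and for eHGT_128h it was 15 (10.3% ± 5.84, n = 3). For eHGT_064h it was 12 (6.51% ± 3.05, n = 4). Their ranges overlapped. Fewer came from eHGT_082h (4 cells), hDLXI56i (2) and eHGT_017h, eHGT_058h and eHGT_078h (1 each). None was found among 128 cells of eHGT_019h or among 137 of eHGT_140h. Counted as independent cells pooled over mice, this allows shares of up to 2.34% and 2.19%, and the spread between mice is not covered. Only 4 of the eHGT_019h cells passed either limit (1 Sst-only and 3 Pvalb-only), against 128 of the eHGT_140h cells. Of the eHGT_140h cells, 126 were Pvalb-only, whereas eHGT_017h gave 63 Sst-only cells and 1 with both. The enhancers accounted for a share of 0.735 of the variance between mice (omnibus permutation test, 100000 resamples, 33 mice, p = 0.00127). Taken among the cells past either limit, in the 25 mice with at least 5 of them, that share was 0.750 (permutation p = 0.00224). With the limit at 1000 CPM, which left 19 cells with both, it was 0.287 (permutation p = 0.534). These shares were not adjusted for the number of enhancers. With 11 enhancers and few mice for each, a part of such a share arises by chance. By the prefix letter of their library names, 40 of the 70 cells were of letter G and 30 of letter J. Of the cells past either limit, 618 were of letter G and 269 of letter J. All mice of eHGT_023h were of letter J and all of eHGT_128h of letter G, so letter and enhancer cannot be told apart there.

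**Figure D2:**
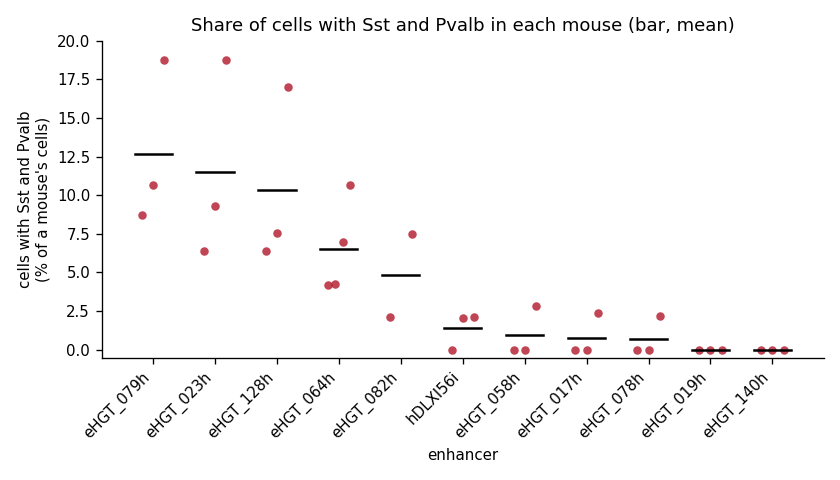
Percent of each mouse's cells that held both genes, 1 point per mouse, by enhancer; bars are means over mice. The 3 mice of eHGT_079h lie between 8.70% and 18.8%, and all mice of eHGT_019h and eHGT_140h lie at 0. Past either limit there were 4 cells of eHGT_019h and 128 of eHGT_140h.

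Apart from the 4 genes of the rule, cells with both lay mostly next to one another. Each cell's 15 nearest neighbours were taken from other mice, in 20 principal components of the 2000 most variable genes of the 887 cells. For cells with both, 70.6% of the neighbours also held both genes, 13.4% were Sst-only and 16% Pvalb-only. They were the majority of the neighbours for 54 of 70 cells, while 10 cells lay mostly among Pvalb-only and 3 mostly among Sst-only cells. In 8 mice with at least 3 cells of each class, the mean share was 71.0% ± 13.2 for cells with both and 15.4% ± 10.4 for Sst-only cells (SD). It was higher in 8 of 8 mice (exact sign-flip permutation p = 0.00781, the smallest that 8 mice allow). In 11 mice it was 72.0% ± 13.9 for cells with both and 2.51% ± 1.69 for Pvalb-only cells, higher in 11 of 11 (exact permutation p = 0.000977, the smallest that 11 mice allow). With at least 5 cells per class and mouse, the few mice left gave exact permutation p-values of 0.25 and 0.0625, the smallest they allow, and differences of 63.9 and 75.3 percentage points.

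Leiden clustering of the same components put 52 of the 70 cells (74.3%) in 1 cluster of 70 cells from 19 mice, which also held 14 Sst-only and 4 Pvalb-only cells. The other 18 were spread over clusters that were mostly Pvalb-only (15 cells) or mostly Sst-only (3 cells), and 7 of 15 clusters held none. A mostly Pvalb-only cluster held 26 Pvalb-only cells, 5 with both and 2 Sst-only cells. Like the shared cluster, it had Synpr, Tnni3k, Calb1, Npy, Pcdh8 and Tox among its leading genes. At a coarser resolution of 0.5, 53 of the cells fell in a cluster of 159 cells of which 101 were Sst-only. At a finer one of 2, 50 fell in a cluster of 66 cells. The 14 Sst-only cells of the shared cluster had Pvalb from 40.97 to 299 CPM (median 104), below the limit and above 0 in all 14. The cluster is described by its own cells and is no test of a cell type.

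**Figure D3:**
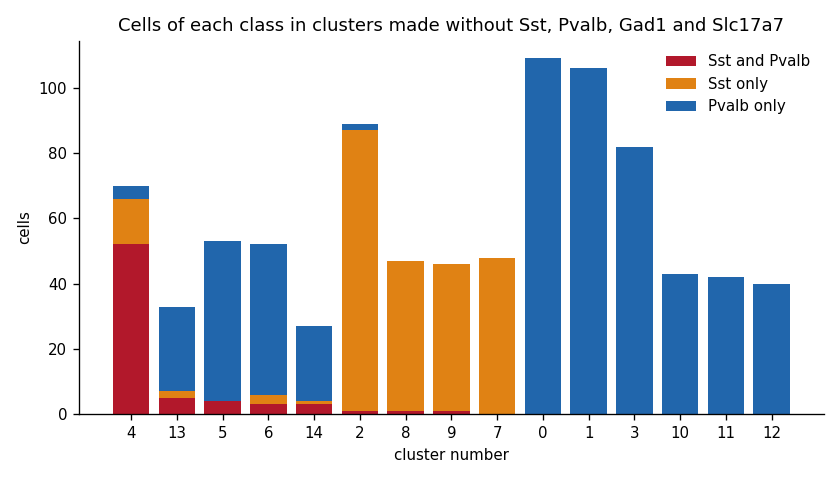
Cells of the 15 clusters by class, as stacked bars of cell numbers. A single cluster holds 52 of the 70 cells with both, beside 14 Sst-only and 4 Pvalb-only cells.

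Genes were compared as log2(mean CPM per mouse and class + 1), with limma and the mouse as a block, over 18092 genes. This used 12 mice with at least 3 cells with both (60 cells), 18 with Sst-only and 21 with Pvalb-only cells; 8 mice had both the first and second of these classes and 11 the first and last. A gene was called at an adjusted p under 0.05 (Benjamini-Hochberg) and a difference of at least 1 on the log2 scale. Cells with both were compared with Sst-only cells and with Pvalb-only cells. The 2 comparisons share the cells with both, and each class averages over several kinds of neuron.

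Against Sst-only cells, 69 genes were higher (0.381% of those tested) and 337 lower (1.86%), 406 in all (2.24%). Against Pvalb-only cells, 274 were higher (1.51%) and 750 lower (4.15%), 1024 in all (5.66%). The split moved with the summary: with the mean of log2 values over cells in place of the log2 of the mean, the counts were 230 higher and 144 lower against Sst-only, and 442 and 387 against Pvalb-only cells. With equal cell numbers per class, a setting chosen after seeing the data, they were 83 and 126, then 356 and 299. Against Sst-only cells the lean toward lower values was thus smaller with equal cell numbers and turned with the mean of log2 values, and against Pvalb-only cells it turned in both. Over all 3 settings, 41 higher and 77 lower genes against Sst-only cells, and 224 and 223 against Pvalb-only cells, kept their call. The median over all genes was -0.08 against Sst-only and -0.13 against Pvalb-only cells.

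The gene with the largest rise against Sst-only cells was Lpl, a lipase that releases fatty acids from lipoproteins. Its lowest, median and highest mouse means were 7.25, 27.2 and 77.8 CPM in cells with both, 0, 0.477 and 20.1 CPM in Sst-only, and 70.5, 106 and 148 CPM in Pvalb-only cells. The ranges with Sst-only cells overlapped, but every one of 8 mice had the higher value in cells with both. The log2 difference was 3.57 (SE 0.37, limma adjusted p = 2.88e-07) from Sst-only cells and -1.80 (SE 0.34, adjusted p = 0.000353) from Pvalb-only cells. Thbs2 encodes the matrix protein thrombospondin 2. Its median was 60.6 CPM in cells with both, 13.6 in Sst-only and 24.7 in Pvalb-only cells. It was called higher against both (2.56 and 1.38 on the log2 scale). Thbs2 did not pass the test of a level beyond both classes, given below (limma adjusted p = 0.572). Plcxd3 (2.04) was higher than in Sst-only cells in 8 of 8 mice and lower than in Pvalb-only cells in 11 of 11. Zmat4, which encodes a zinc finger protein, was higher than in Sst-only cells by 2.25 (7 of 8 mice). With a limit of 1000 CPM it turned to -0.055.

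Cox6a2, a subunit of cytochrome c oxidase found in muscle and in Pvalb interneurons, had 0, 13.8 and 99.9 CPM (lowest, median and highest mouse) in cells with both, against 149, 325 and 559 CPM in Pvalb-only cells. These ranges did not overlap (log2 difference -4.57, limma adjusted p = 1.08e-07). Its rise over Sst-only cells (2.06, adjusted p = 0.0245) was lost without any 1 of 3 mice, 2 of eHGT_079h and 1 of eHGT_023h (adjusted p up to 0.0778). Akr1c18, a steroid-metabolizing reductase, was at 315, 664 and 1093 CPM in cells with both, at 2.43, 67.9 and 580 CPM in Sst-only and at 0, 170 and 393 CPM in Pvalb-only cells. It was called higher against both (1.96, adjusted p = 0.0154, 8 of 8 mice; 1.65, adjusted p = 0.0115, 10 of 11). Without the eHGT_064h mouse that gave 3 cells, the first of these adjusted p-values was 0.0534, and its call also failed in 5 of 13 alternative settings. Akr1c18 did not pass the test of a level beyond both classes, given below (limma adjusted p = 0.335).

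Among genes lower than in Sst-only cells, several mark particular Sst interneurons. Reln, the extracellular glycoprotein reelin, was at 0, 18.2 and 75.5 CPM in cells with both and at 141, 281 and 489 CPM in Sst-only cells, with no overlap (log2 difference -4.12, limma adjusted p = 3.04e-06, 8 of 8 mice). Calb2, the calcium buffer calretinin, was at a median of 2.62 CPM against 282 CPM (-4.54, 8 of 8 mice), and 10 of 70 cells held it at 10 CPM or more. Hpse, the enzyme heparanase, was at 0 in the median mouse against 38.7 CPM (-4.84, 7 of 8 mice) and reached 10 CPM in 2 of 70 cells. Pde1a, a calmodulin-dependent phosphodiesterase, fell from a median of 429 CPM to 19.7 CPM (-4.42, 8 of 8 mice). Unlike Hpse, Pde1a was still above the level of Pvalb-only cells (3.14, adjusted p = 1.73e-05).

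Pdyn, the precursor of the dynorphin peptides, was listed at 0 in Pvalb-only cells of all 21 mice. In cells with both it had a mean of 164 CPM, at least 162-fold higher than the largest level that 3 reads in a mouse would give there (1.01 CPM). This rests on the eHGT_023h mouse at 1284 CPM: the other 11 mice had a mean of 62.0 CPM, at least 61.4-fold higher. Pdyn varied widely, from 0 through a median of 55.0 to 1284 CPM over 12 mice, and 26 of 70 cells had it at 10 CPM or more. Sst-only cells were higher still, at 459, 1258 and 2700 CPM (difference -4.25, limma adjusted p = 9.78e-06).

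The genes that separated cells with both from Pvalb-only cells most widely upward were genes of the Sst side. Synpr, the synaptic vesicle protein synaptoporin, was at 942, 1331 and 1870 CPM in cells with both and at 0, 59.7 and 229 CPM in Pvalb-only cells, with no overlap (4.42, limma adjusted p = 1.97e-07, 11 of 11 mice). Sst-only cells had 1381, 1950 and 2922 CPM, and the difference of -0.99 was not called (adjusted p = 0.309), although it was lower in 8 of 8 mice. Cbln4, a secreted synapse organizer, was at a median of 123 CPM against 2.35 CPM (4.58). Rxfp3, the receptor of relaxin-3, was at 74.9 against 1.99 CPM (4.31), and Tnni3k, a cardiac troponin-interacting kinase, at 172 against 5.16 CPM (4.29). These 3 were higher than in Pvalb-only cells in 11 of 11 mice and were not called against Sst-only cells. Their medians in Sst-only cells were 191 CPM for Cbln4, 47.7 for Rxfp3 and 45.95 for Tnni3k. Tnni3k was higher than in Sst-only cells in 7 of 8 mice (0.83, limma adjusted p = 0.243), and Rxfp3 in 5 of 8. With the mean of log2 values over cells, Tnni3k and Rxfp3 were called higher than in Sst-only cells (3.01 and 1.95).

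Downward, the widest separation was of Tac1, the precursor of substance P. In cells with both it was at 0 in the median mouse and 4.50 CPM in the highest of 12, whereas Pvalb-only cells had 264, 639 and 1796 CPM (-8.57, limma adjusted p = 5.29e-10, 11 of 11 mice). The fit left out 10 of the 70 cells, from mice with fewer than 3. Tac1 was at 10 CPM or more in 3 of those 10, up to 5074 CPM, and in 1 of the 60 in the fit, at 13.5 CPM. Over all 70 cells its mean was 119.9 CPM, against 608 CPM over Pvalb-only cells, a far smaller gap than in the fit. With mice of at least 2 cells the difference was -7.29 (limma adjusted p = 6.45e-07). Parm1 (-6.28), Cck, the precursor of the peptide cholecystokinin (-6.004), Pthlh, a parathyroid hormone-like peptide (-5.60), and Pdlim3, an actin-associated protein (-5.41), were lower in 11 of 11 mice. Tcap, a sarcomere protein of muscle, was listed at 0 in all 12 mice of the fit. Its mean of 64.8 CPM in Pvalb-only cells was at least 35.5-fold higher than the 1.83 CPM that 3 reads in the shallowest mouse would give. It was at 10 CPM or more in 3 of the 10 cells outside the fit, up to 47.8 CPM.

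**Figure D4:**
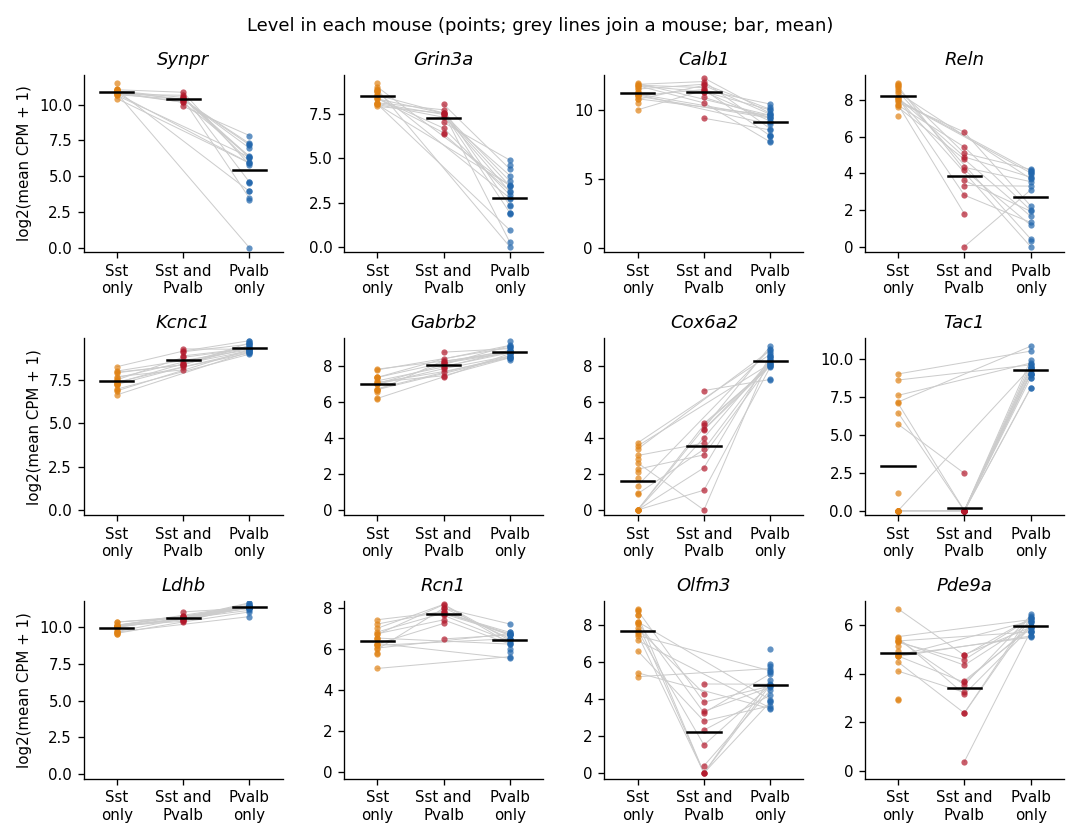
log2(mean CPM + 1) per mouse of 12 genes in cells with both, Sst-only and Pvalb-only cells (12, 18 and 21 mice); grey lines join the classes of a mouse. For Synpr and Grin3a the cells with both lie near Sst-only cells, for Reln nearer to Pvalb-only cells, for Tac1 at or near 0, and for Kcnc1, Gabrb2 and Ldhb between the classes.

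To ask whether cells with both were a type of their own or lay between the classes, each gene was tested for a level beyond both classes and for a level between them. For this the larger of the 2 limma p-values was adjusted over all genes. Beyond both classes, 1 gene was higher (0.00553%) and 2 were lower (0.0111%); 695 genes had an unadjusted p under 0.05. Between them lay 141 genes (0.779%), 88 of them higher in Pvalb-only cells (0.486%) and 53 higher in Sst-only cells (0.293%). The test asks for 2 differences at once, so a gene that misses it is not shown to equal either class.

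The gene above both classes was Rcn1, which encodes reticulocalbin 1, a calcium-binding protein of the endoplasmic reticulum (chromosome 2, 105386291 to 105399319, minus strand). Its mouse means were 89.6, 220.5 and 289.5 CPM in cells with both (lowest, median and highest), 32.4, 83.5 and 172 CPM in Sst-only and 46.2, 90.2 and 149 CPM in Pvalb-only cells. Cells with both were higher in 8 of 8 and in 10 of 11 mice, the exception being the eHGT_082h mouse at 89.6 CPM. The differences were 1.03 (SE 0.17) and 1.08 (SE 0.15), and the adjusted p of the larger one was 0.0118. Single cells at 10 CPM or more were 63 of 70, 177 of 245 and 477 of 572.

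Below both classes lay Olfm3, the secreted glycoprotein olfactomedin 3 (chromosome 3, 114904078 to 115125722, plus strand), and Pde9a, a phosphodiesterase that breaks down cyclic GMP (chromosome 17, 31386210 to 31476310, plus strand). Olfm3 was at 0, 5.02 and 27.3 CPM in cells with both, at 36.2, 247 and 465 CPM in Sst-only and at 10.2, 25.99 and 106 CPM in Pvalb-only cells. The differences were -5.54 and -2.61 (limma adjusted p = 0.0118). Pde9a was at 0.311, 11.04 and 26.3 CPM in cells with both, at 6.44, 27.8 and 99.2 CPM in Sst-only and at 43.7, 60.2 and 84.9 CPM in Pvalb-only cells, the last with no overlap. Its differences were -1.66 and -2.60 (adjusted p = 0.0118), lower in 8 of 8 and 11 of 11 mice. These calls were not stable. Without the eHGT_064h mouse that gave 3 cells the adjusted p was 0.066 for each of the 3 genes, and without the eHGT_023h mouse that gave 4 it was 0.0849 for Pde9a. Over 13 other settings the calls of Rcn1 and Olfm3 failed in 8 and that of Pde9a in 5. The number of genes beyond both classes ran from 0 to 54 over those settings.

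Of the genes between the classes, those higher in Pvalb-only cells are given first. Got1, an aspartate aminotransferase, was at 607, 1016 and 1549 CPM in Sst-only, at 1409, 1601 and 1876 CPM in cells with both, and at 1082, 1888 and 2443 CPM in Pvalb-only cells (0.50 and -0.32, limma adjusted p = 1.15e-05). Ldhb, a subunit of lactate dehydrogenase, had medians of 1034, 1595 and 2650 CPM in the same order (0.53 and -0.77, adjusted p = 1.7e-05). The range of Ldhb in cells with both (1329 to 2138 CPM) lay above all Sst-only mice (758 to 1326 CPM). Ckb, brain creatine kinase, had medians of 1761, 2583 and 3742 CPM (0.39 and -0.65, adjusted p = 1.7e-05). All 3 genes were higher than in Sst-only cells in 8 of 8 mice and lower than in Pvalb-only cells in 11 of 11. Rnd2, a small GTPase, had medians of 99.4, 333 and 479.9 CPM (1.31 and -0.72). Chchd3, a mitochondrial inner membrane protein, had medians of 105, 167 and 245 CPM (0.69 and -0.52).

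From the Sst side, Rgs17, a regulator of G protein signalling, had medians of 316 CPM in Sst-only, 152 CPM in cells with both and 83.4 CPM in Pvalb-only cells (-0.89 and 0.87, limma adjusted p = 3.08e-05). Dgkg, a diacylglycerol kinase, had 386, 244 and 79.8 CPM (-0.56 and 1.54, adjusted p = 0.000156). Its 12 mice of cells with both (182 to 304 CPM) overlapped the Sst-only range at its lower end and no Pvalb-only mouse. Pgrmc1, Tspan7 and Nrxn3 lay between in the same way, with differences from Sst-only cells of -0.63, -0.42 and -0.53. Nrxn3, the presynaptic adhesion protein neurexin 3, failed in 4 of 13 settings (adjusted p up to 1).

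On an axis where 0 is the level of Sst-only cells and 1 that of Pvalb-only cells, cells with both had a median position of 0.28 over the 773 genes called higher in Pvalb-only cells (4.27% of those tested; quartiles 0.031 and 0.477). On the same axis the median was 0.558 (quartiles 0.3 and 0.839) for the 747 genes called higher in Sst-only cells (4.13%). The 2 lists together were 8.4% of the genes tested. Positions past the ends were not rare: 173 Pvalb-side genes lay below 0, lower than in Sst-only cells, and 88 Sst-side genes lay above 1, lower than in Pvalb-only cells. At the opposite ends there were 6 and 31. With the mean of log2 values over cells the medians were 0.349 and 0.434, and the ends held 119 Pvalb-side genes below 0 and 31 above 1. The Sst-side ends then turned round, with 87 below 0 and 41 above 1. The 2 lists were chosen on single-class cells of the same fit and get no test here. A middle median thus hides genes at either end, as the gene groups below show.

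**Figure D5:**
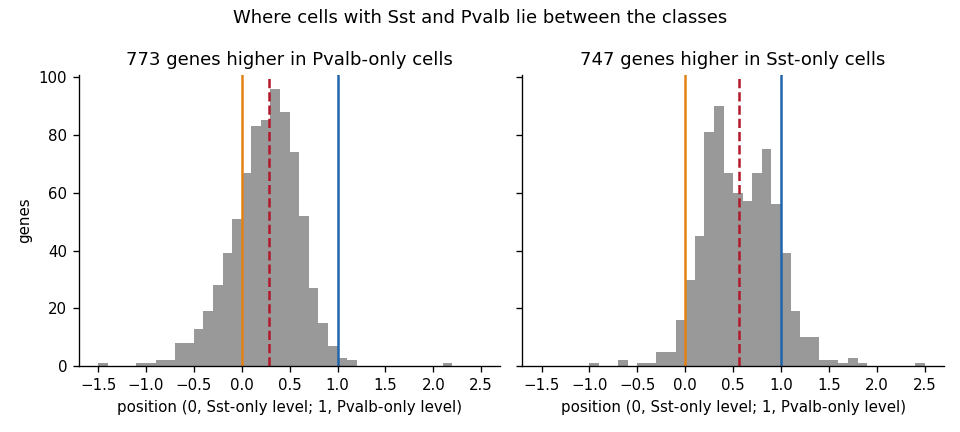
Histograms of the position of cells with both between the single classes, for 773 genes higher in Pvalb-only and 747 genes higher in Sst-only cells; the dashed lines are the medians, 0.28 and 0.558. Both spread from below 0 to above 1, with the outermost values drawn at the edges.

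The gene lists below were fixed by name; 20 of 21 Sst-side markers were tested. Against Pvalb-only cells 9 were higher and 1 lower (median 0.80, all genes -0.13), and against Sst-only cells 0 were higher and 4 lower (median -1.03, all genes -0.08). With genes at 0 in a class set to their bound, the medians were 1.22 and -1.01. Grin3a, a glutamate receptor subunit typical of Sst interneurons, was at 81.5, 174 and 262 CPM in cells with both, at 243, 354 and 605 CPM in Sst-only and at 0, 6.60 and 28.6 CPM in Pvalb-only cells. It differed from both (-1.41, limma adjusted p = 0.025; 4.36, adjusted p = 1.91e-10). Calb1, the calcium buffer calbindin, was at 674, 2815 and 5101 CPM, against 1031, 2406 and 3915 CPM in Sst-only cells with full overlap (0.12, adjusted p = 0.884) and 204, 681 and 1375 CPM in Pvalb-only cells (2.04, adjusted p = 5.39e-06, 11 of 11 mice). Elfn1, a postsynaptic adhesion protein, was higher than in Pvalb-only cells in 11 of 11 mice (3.81). Nos1, Chodl and Crh, which mark other Sst neurons, were not called in either comparison, and Chodl was at 0 in all 12 mice.

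Of 16 Pvalb-side markers, 4 were higher and 2 lower than in Sst-only cells (median 0.70), 2 were higher and 5 lower than in Pvalb-only cells (median -0.76), and 7 lay between. Over all genes the called shares were 0.381% higher and 1.86% lower than in Sst-only cells, 1.51% and 4.15% against Pvalb-only cells, and 0.779% between. With the mean of log2 values 8 were higher than in Sst-only cells. Between the single classes, 9 of the 16 were called higher and 1 lower in Pvalb-only than in Sst-only cells. Akr1c18, a member of this list, was not called between them (0.31, limma adjusted p = 0.678). Kcnc1, a channel subunit that ends action potentials quickly, was at 98.1, 161 and 304 CPM in Sst-only, at 268, 354 and 618 CPM in cells with both and at 501, 627 and 858 CPM in Pvalb-only cells (0.96 and -0.78, limma adjusted p between the classes = 6.52e-05). Kcna1, an axonal potassium channel, had medians of 111, 266 and 332 CPM in the same order (0.69 and -0.39), and its test between the classes gave an adjusted p of 0.0593. Erbb4, the neuregulin receptor, had medians of 65.3, 203 and 1008 CPM and was called against both classes (1.58 and -2.31, adjusted p between = 0.00589). Syt2, the calcium sensor of fast release, did not follow: its median was 0.470 CPM in cells with both, 0.0874 in Sst-only and 121 CPM in Pvalb-only cells (-4.79, 11 of 11 mice). Cpne5, although listed on the Pvalb side, was lower in Pvalb-only than in Sst-only cells here, and cells with both had a median of 17.98 CPM against 104 and 2.92 CPM.

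The list of fast-spiking channels held 21 genes. Against Sst-only cells 2 rose and 1 fell (median 0.51), 1 was lower than in Pvalb-only cells (median -0.27), near the share of 4.15% over all genes, and 4 lay between, against 0.779%. With the mean of log2 values 7 were higher than in Sst-only cells. Kcnab3, a potassium channel beta subunit, had medians of 92.1 CPM in Sst-only, 259 in cells with both and 328 in Pvalb-only cells (1.01 and -0.53). Kcnc4 was lower than in Sst-only cells (0 against 17.8 CPM, -2.16). Of 17 genes of vesicle release, 2 were lower than in Sst-only cells and 4 were higher and 1 lower than in Pvalb-only cells (medians -0.06 and -0.01; all genes 1.86%, 1.51% and 4.15%), with 4 between. Rph3a, a vesicle protein, was at 79.7 CPM against 98.8 in Sst-only and 28.5 in Pvalb-only cells (called against the latter), and Unc13c, a priming factor, at 21.1 against 74.8 and 0.0444 CPM, between the 2 (adjusted p = 0.00161).

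Of 17 genes of GABA synthesis and reception, 2 were higher and 1 lower than in Sst-only cells (median 0.23), 2 were lower than in Pvalb-only cells (median -0.002) and 5 lay between. Called over all genes were 0.381%, 1.86% and 4.15% in the same order, and 0.779% between. Gabrb2, a beta subunit of the GABA-A receptor, had medians of 129 CPM in Sst-only, 262 in cells with both and 419 in Pvalb-only cells (0.93 and -0.70, limma adjusted p between the classes = 0.000179). Gabrg3 was higher than in Sst-only cells (1.15). Of 22 glutamate receptor genes tested, 6 were higher than in Pvalb-only cells and 2 lower than in Sst-only cells (medians 0.29 and -0.24; all genes 1.51% and 1.86%). The former included Grm7, at a median of 159 CPM against 32.1 in Pvalb-only and 174 in Sst-only cells, and Grik3, at 61.3 against 14.2 and 78.0 CPM. Grik1, a kainate receptor subunit, was instead low, at 54.3 CPM against 135 in Sst-only (-1.18) and 64.8 in Pvalb-only cells (-0.16, adjusted p = 0.645).

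Of 23 respiratory chain genes, 8 lay between the classes, against 0.779% of all genes. Cox6a2 alone passed the log2 limit of 1 in either comparison, and the list's medians were 0.22 and -0.23. Atp5b, the catalytic beta subunit of ATP synthase, was at 2394, 3499 and 4386 CPM in Sst-only, at 3795, 4293 and 4771 CPM in cells with both and at 3153, 4919 and 5957 CPM in Pvalb-only cells (0.20 and -0.25, limma adjusted p = 0.00019). These were small, overlapping differences that went the same way in 8 of 8 and 11 of 11 mice. Of 10 perineuronal net genes tested, 1 was higher than in Sst-only cells (Hapln1, 1.57) and 4 were lower than in Pvalb-only cells (medians 0.27 and -0.85; all genes 0.381% and 4.15%). Acan, the aggrecan core protein, was at medians of 0.190, 0 and 10.8 CPM in cells with both, Sst-only and Pvalb-only cells (-2.26 from the last).

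Of 13 peptide genes tested, 0 were higher and 3 lower than in Sst-only cells, and 5 were higher and 4 lower than in Pvalb-only cells (medians -0.51 and 0.36). The shares over all genes were 0.381% and 1.86%, then 1.51% and 4.15%. Npy, neuropeptide Y, was at 856, 2390 and 4078 CPM, against 959.5, 4004 and 12010 CPM in Sst-only cells (-1.01, limma adjusted p = 0.0812) and 115, 498 and 1005 CPM in Pvalb-only cells (2.19, adjusted p = 1.24e-05). Cort, the somatostatin-like peptide cortistatin, had a median of 504 CPM against 389.6 and 282 CPM, differences of 0.46 (adjusted p = 0.275) and 0.77 (adjusted p = 0.0105) that did not reach the limit of 1. Vgf, a secretory granule protein, lay between (596 against 668 and 197 CPM, adjusted p = 0.0256). Of 30 receptors of peptides and neuromodulators, 5 were lower than in Sst-only cells, and 5 were higher and 6 lower than in Pvalb-only cells (medians -0.37 and 0.01), against 1.86%, 1.51% and 4.15% of all genes. Oxtr, the oxytocin receptor, was at 67.9 CPM against 13.5 in Pvalb-only (2.33) and 107 in Sst-only cells (-0.70, adjusted p = 0.221). Chrm2, a muscarinic receptor, was lower than in both, at 0 against 19.3 and 7.61 CPM, without passing the test of a level beyond both (adjusted p = 0.0844).

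Of 20 transcription factors tested, 3 were higher and 1 lower than in Pvalb-only cells (all genes 5.66% in either direction), and 0 were higher and 1 lower than in Sst-only cells (all genes 2.24%; medians 0.15 and -0.15). Lhx6 and Sox6, factors of the medial ganglionic eminence lineage, were not called in either, at medians of 147 and 124 CPM. Tox was at 55.1, 97.1 and 134 CPM, against 40.7, 88.5 and 188 CPM in Sst-only cells (-0.39, limma adjusted p = 0.525) and 0, 6.32 and 19.8 CPM in Pvalb-only cells (3.37, adjusted p = 1.75e-10). Of 14 calcium-binding protein genes, 2 were lower than in Sst-only cells (Calb2 and S100a10), and 3 were higher and 3 lower than in Pvalb-only cells (medians -0.18 and 0.09; all genes 1.86%, 1.51% and 4.15%). Of 14 immediate early genes, which respond to recent activity, 6 were lower than in Sst-only cells (medians -1.03 and -0.45; all genes 1.86%), but 0 were with the mean of log2 values. Of 16 tested genes after which co-expressing types are named, 3 were lower and 0 higher than in Sst-only cells, and 2 were higher and 4 lower than in Pvalb-only cells (medians -0.01 and -0.42; all genes 1.86%, 0.381%, 1.51% and 4.15% in that order). Th was at 10 CPM or more in 2 of 70 cells, while Itm2a was so in 54.3% of cells with both, 22.04% of Sst-only and 32.7% of Pvalb-only cells.

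Counted per cell, the cells with both expressed many markers of either side. A median of 9 of 21 Sst-side markers was at 10 CPM or more in a cell with both, against 10 in an Sst-only and 4 in a Pvalb-only cell. For the 16 Pvalb-side markers the medians were 12, 10 and 13. The Pvalb-side count thus set the classes little apart at this cut. That list also holds Cpne5, which was higher in Sst-only than in Pvalb-only cells.

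The 70 cells were not alike. Between the 52 cells of the shared cluster and the 18 elsewhere, values are given as a description, since these genes also made the clusters. Sst had a median of 3095 CPM in the 52 and 1609 CPM in the 18, and Pvalb 827 and 771 CPM. Reads per cell had medians of 621982 and 669752, and genes per cell 9958 and 10233. Calb1 reached 10 CPM in 52 of 52 and 12 of 18 cells (means 3416 and 1634 CPM), and Rcn1 in 52 and 11 (means 247 and 99.96 CPM). Akr1c18 did so in 51 and 12 cells. Tac1 was the reverse, in 0 of 52 and 4 of 18 cells, as was Cox6a2, in 14 of 52 and 14 of 18 (means 8.57 and 83.1 CPM). Erbb4 (157 against 408 CPM) was also higher in the 18, which lay mostly in clusters of Pvalb-only cells. Synpr was present in all of both sets, with means of 1459 and 900.2 CPM.

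Levels of Sst and Pvalb, which the rule used, also differed by enhancer, given as a description. In mice with at least 3 cells with both, Sst had mouse means of 1009 to 1743 CPM under eHGT_128h (mean 1447 ± 387, SD, n = 3) and of 3926 to 6612 CPM under eHGT_023h (5119.6 ± 1368, n = 3), without overlap. Under eHGT_079h it was 4441 ± 1043 CPM (n = 3). Pvalb went the other way: 1320.3 ± 68.1 CPM under eHGT_128h, 827 ± 32.5 under eHGT_079h and 705 ± 387 under eHGT_023h (n = 3 each), of which the last overlaps the second. With 3 mice against 3 an exact permutation test cannot go below p = 0.10, and none was run, because both genes were part of the rule. Synpr varied little between these 3 enhancers, with means of 1381 ± 80.4, 1307 ± 158 and 1356 ± 238 CPM under eHGT_128h, eHGT_079h and eHGT_023h. It was at 1603 ± 378 CPM under eHGT_064h (SD, n = 2) and at 942 CPM in the eHGT_082h mouse (n = 1).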

How the data were processed

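Single SYFP2-positive cells were prepared with the SMARTerv4 chemistry from polyadenylated RNA, per the labels' protocols. The values were deposited by the authors as CPM, scaled so that each cell sums to 1000000; STAR and mm10 are named without version or role, per the submitters' processing notes. The counting program, the annotation and the cell filters were not given in the sources used here. Values above 0 were whole multiples of 1 read, so reads were recovered: a median of 586338 per cell, 17123364 to 35856031 per mouse, and about 1.60 CPM per read in cells with both. Reads carry no molecular identifiers, so floors cover counting error only. Gene coordinates are from GENCODE vM21.

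Cells were grouped by enhancer and mouse from their titles. Mean CPM per mouse and class (3 or more cells) was tested as log2(mean + 1), in genes of 1 CPM or more in at least 3 means, with limma 3.58.1 (trend, robust; R 4.3.3, statmod 1.5.0); a log2 difference on this scale understates the change of low genes. The mouse was the block, since classes came from the same animals. No correlation check of the pairing was needed. Shares, depths and neighbours were tested by permutation of mice (scipy 1.17.1), and clusters came from igraph 0.11.9, leidenalg 0.10.2 and scikit-learn 1.9.0 without the 4 genes of the rule (Python 3.11.15, numpy 2.4.6, pandas 2.3.3, matplotlib 3.10.9). The fit was tested on simulated data.

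Named genes were, per direction, the 6 largest called differences (mean of 20 CPM or more, same direction in 80% of mice) and the 8 smallest adjusted p among genes beyond or between the classes, plus list members; Xist, Tsix, Y-linked, mitochondrial, ribosomal and unnamed genes were left out. A few genes that the rule names are not reported here. The cells, the gene lists and the tests were chosen with earlier results of these data known. The alternatives were other pseudocounts, filters, cell minimums, limits, summaries, a fit without the block, voom on reads, letter G libraries only, equal cell numbers and each mouse left out.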

Additional observations from a re-analysis of the deposited data

How the results depend on the processing

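Of 43 named calls, 43 held without cells under 100000 reads, 42 with a pseudocount of 0.1, 41 each with a pseudocount of 10, with the mean of log2 values and with voom, and 40 each with at least 2 cells and with no replicate block. Fewer held with no filter on low genes (39), a limit of 100 CPM (39), equal cells (37), at least 5 cells (35) and letter G libraries (34). A limit of 1000 CPM kept 10, and Zmat4 turned to -0.055.

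Counts of called genes against Sst-only, against Pvalb-only and between Pvalb-only and Sst-only cells were 101, 274 and 515 with a pseudocount of 10. With a pseudocount of 0.1 the count against Pvalb-only cells was 1756, and 10 genes lay beyond both classes. No filter gave 260 against Sst-only cells, 0 beyond and 90 between the classes. At least 2 cells gave 1 beyond. At least 5 cells gave 189 and 669, 0 beyond and 26 between, and a limit of 1000 CPM gave 76 and 296, 24 beyond and 0 between. A limit of 100 CPM gave 299 between. The mean of log2 values gave 20 beyond. With no replicate block, 798 were called against Sst-only cells and 54 lay beyond; the other counts stayed within 1.5 times. Voom gave 1874 against Pvalb-only cells, 15 beyond and 267 between. Letter G libraries gave 189 against Sst-only cells and 25 between. Equal cells, chosen after seeing the data, gave 209 and 655, and 46 between. The causes were not tested.

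Leaving out each of 17 mice gave 330 to 422 against Sst-only, 878 to 1062 against Pvalb-only, 1485 to 1556 between Pvalb-only and Sst-only cells, 0 to 7 beyond and 97 to 170 between the classes. The enhancers' share of the variance was 0.729 to 0.773, and 0.287 with a limit of 1000 CPM (permutation p = 0.534). The neighbour differences were 53.01 to 58.0 and 67.1 to 71.9 percentage points, and 63.9 and 75.3 with at least 5 cells, too few mice to pass. The reads difference from Sst-only cells ran from -23081 to 20689 and was 16413 with at least 5 cells and 13443 with a limit of 100 CPM, so its sign was not settled. From Pvalb-only cells it ran from 24430 to 38387, and 40863 with a limit of 100 CPM. The genes difference from Sst-only cells ran from 149 to 332, and 293 with a limit of 100 CPM. From Pvalb-only cells it ran from -149 to -4.25, 127 with a limit of 100 CPM and 168 with 1000 CPM. The number of cells with both per mouse, at most 9, limits every comparison.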

Other observations

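With the mean of log2 values over cells as the summary, and the same 18092 genes, 17 genes lay beyond both classes, 16 of them higher in cells with both. They were looked at after their values were seen, and the setting favours genes present in more of the cells. Rxrg, a nuclear retinoid receptor, was at 10 CPM or more in 50 of 70 cells with both (71.4%), in 22.4% of Sst-only and in 22.9% of Pvalb-only cells. Its difference was 2.36 from Sst-only and 2.40 from Pvalb-only cells (limma adjusted p of the larger = 0.000755). Akr1c18 was present in 90% against 35.9% and 65.6% of cells. Igfbp4, which binds insulin-like growth factors, was present in 100% against 77.1% and 85.1%, and Moxd1, a monooxygenase-like protein, in 95.7% against 68.2% and 51.4%. The others that were higher were Thbs2, Tnni3k, Amn, Calca, Rcn1, Stard13, Dmrt2, Gpr83, Doc2b, Hlf, C1qtnf2 and Nrep, and Pde9a was lower. Of these, Rcn1 and Pde9a were also called with the log2 of the mean.

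Outside the rule, 3 cells had Sst and Pvalb at 300 CPM or more with Slc17a7 at 10.3, 15.5 and 40.4 CPM.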
